A study of Saccharomyces cerevisiae with 48 samples.

Results

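Mid S phase of yeast meiosis was examined as the change in relative copy number along the chromosomes between 2 and 3 hr of meiosis. All listed positions off chromosome III were used, 4450 of 4568, and they were averaged into 1143 of the 1174 windows of 10 kb. The samples came from 6 meiotic cultures of budding yeast (Saccharomyces cerevisiae), pre-grown in SPS medium and then held at 30 °C in medium with 2% potassium acetate. The strains were wild type, DDK OP and tof1∆, each once as ARS+ and once as ars∆, so that each culture gave 1 sample at 2 hr and 1 at 3 hr. DDK OP stands for overproduction of the Dbf4-dependent kinase, and the sources used here do not say which promoter drives it. The label ars∆ marks loss of replication origins, which the study is known to have removed on chromosome III, left out of the counts here. Each strain was 1 culture, so a strain and its culture cannot be told apart, and the p-values measure the spread between the 6 cultures.

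Chromosomes are copied from origins (ARS elements), where the kinase DDK activates the loaded helicase and a pair of forks moves outwards. In total DNA from a culture in S phase, a region copied early stands above the genome's median, and a region copied late falls below it until the forks arrive. In mitotic budding yeast, kinetochore proteins bring DDK to origins near centromeres, which then fire early, while Rif1 and protein phosphatase 1 oppose DDK near telomeres, where origins fire late. Tof1, with its partner Csm3, travels with the fork, keeps it coupled to the helicase and holds DDK there. Levels below are log2 of the deposited ratio over its median in that sample, so that 0 is the median position and 1 would be a full doubling of it. A change is the 3 hr level minus the 2 hr level of the same culture, and the fraction of cells replicating and the pace within each cell cannot be told apart in it.

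The cultures moved unequally along the 3 minus 2 hr change of the others, and 2 of them followed it least. Each sample was given a slope, over windows, on the mean 3 minus 2 hr change of the other 5 cultures. That change is the contrast itself, so a culture that shares it has a higher slope at 3 hr than at 2 hr by construction. A highest slope at 3 hr is likewise favoured. Between 2 and 3 hr this slope went from 0.022 to 1.68 in wild-type ars∆, from 0.090 to 1.46 in tof1∆ ARS+, from 0.17 to 1.27 in tof1∆ ars∆ and from 0.51 to 0.97 in DDK OP ARS+. The other two moved least, from 0.44 to 0.47 in wild-type ARS+ and from 0.51 to 0.66 in DDK OP ars∆. In both of these the slope dipped at 2.5 hr, to 0.35 and 0.33, and was highest at 3.5 hr, at 1.05 and 0.90, whereas the other cultures had their highest value at 3 hr. Over the 1143 windows, the change of wild-type ARS+ correlated at r = 0.039 with the mean of the other 5 cultures and that of DDK OP ars∆ at 0.16, against 0.36 in DDK OP ARS+ and 0.61 to 0.69 in the remaining cultures. Taken in pairs, the changes of wild-type ars∆, tof1∆ ARS+ and tof1∆ ars∆ correlated with each other at 0.60 to 0.67. All other pairs, those with DDK OP ARS+ included, were at -0.016 to 0.37. These are correlations across windows of 1 genome, which are not independent. How far S phase had advanced was not measured here.

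**Figure D1:**
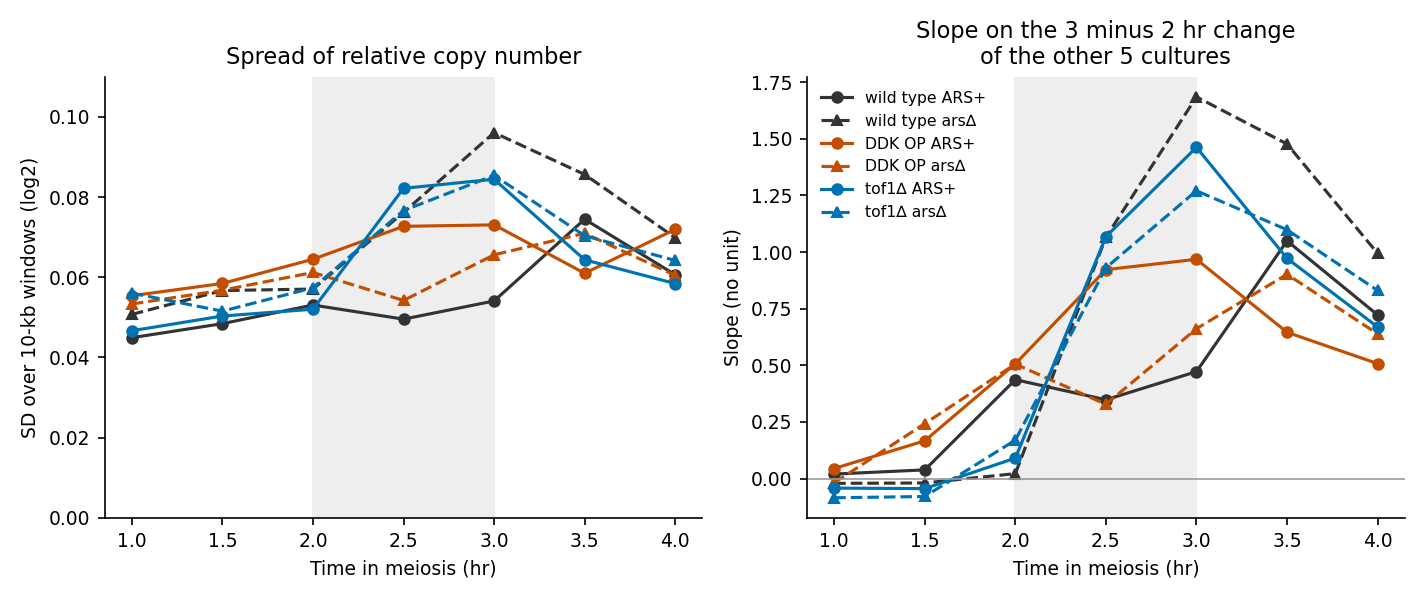
Left, SD over 10-kb windows of log2 relative copy number against time in meiosis (hr), 1 line per culture. Right, slope of each sample (no unit) on the 3 minus 2 hr change of the other 5 cultures: wild-type ARS+ and DDK OP ars∆ peak at 3.5 hr, the other cultures at 3 hr.

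In the mean of the 6 cultures the chromosomes became less even between 2 and 3 hr. The SD over windows was 0.058 ± 0.0047 (SD, n = 6) at 2 hr and 0.076 ± 0.015 (SD, n = 6) at 3 hr. It rose in 6 of 6 cultures, by 0.019 ± 0.016 (SD, n = 6, exact two-sided sign-flip p = 0.031, the smallest 6 cultures allow). The rise was slight in wild-type ARS+ (0.053 to 0.054) and small in DDK OP ars∆ (0.061 to 0.066) and DDK OP ARS+ (0.065 to 0.073). It was larger in wild-type ars∆ (0.057 to 0.096), tof1∆ ARS+ (0.052 to 0.084) and tof1∆ ars∆ (0.057 to 0.085). That p-value thus depends on the sign of the slight rise in wild-type ARS+. With 1 culture left out the rise was 0.015 to 0.022, where the exact test on 5 cultures cannot go below p = 0.0625.

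Windows that gained lay mostly around centromeres, and windows that lost lay far from them, often towards the chromosome ends. Of 1143 windows, 28 gained (2.45%) and 23 lost (2.01%) at an adjusted p under 0.05 (limma on the paired differences), and 346 (30.3%) had an unadjusted p under 0.05, 190 of them upwards. The 28 gains formed 24 regions on 12 chromosomes, with at most 2 adjacent windows, and the 23 losses formed 17 regions on 9 chromosomes, with at most 4. The gains ran from 0.067 to 0.17 with a median of 0.086, and the losses were 0.065 to 0.13 in size with a median of 0.088. All 6 cultures went the same way in 24 of the 28 gains and in 18 of the 23 losses, and over all windows in 95 upwards and 68 downwards. The calls were made on these same 6 differences, so a shared sign in the called windows was largely fixed by that choice.

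The number of calls depended on single cultures. Without wild-type ars∆, tof1∆ ARS+ or tof1∆ ars∆ no window was called in either direction, with 207, 217 and 234 windows at an unadjusted p under 0.05. Without DDK OP ARS+, 4 gained and 1 lost. Without wild-type ARS+, 93 gained and 70 lost, and without DDK OP ars∆, 46 gained and 42 lost. All 20 windows named next for their gain or loss kept their direction in each of these 6 repeats. They were chosen on the same 6 cultures, so a kept direction was largely fixed by that choice. Of the 20, 3 were called without DDK OP ARS+ and none without wild-type ars∆ or either tof1∆ culture.

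In the lists of values below, the cultures come in the order wild type, DDK OP and tof1∆, each ARS+ and then ars∆. The first gain by size, at 420001 to 430000 on chromosome XI and 15.2 kb from the centromere, had 2 hr levels of 0.035, 0.0019, -0.0086, 0.094, -0.089 and -0.012 and 3 hr levels of 0.036, 0.20, 0.12, 0.16, 0.079 and 0.080. The window rose in 6 of 6 cultures, by 0.0013 in wild-type ARS+ and by up to 0.19 in wild-type ars∆, and the levels at both times overlapped. Its mean change was 0.11 ± 0.071 (SD, n = 6, adjusted p = 0.0463).

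A steadier gain lay on an arm of chromosome X, at 540001 to 550000, 109 kb from the centromere. Its 2 hr levels were 0.0022, -0.0046, 0.033, -0.015, 0.0038 and 0.0090, and its 3 hr levels were 0.071, 0.13, 0.098, 0.062, 0.11 and 0.12. All cultures were near the median position at 2 hr and above it at 3 hr, with no overlap. The change was 0.094 ± 0.028 (SD, n = 6, adjusted p = 0.0307). Another gain far from its centromere, 244 kb away at 390001 to 400000 on chromosome XII, went from -0.050 ± 0.044 at 2 hr to 0.040 ± 0.026 at 3 hr (SD, n = 6). It was below the median position in 5 of 6 cultures at 2 hr and above it in 6 of 6 at 3 hr, with levels that overlapped between the times, and its change was 0.090 ± 0.057 (SD, n = 6, adjusted p = 0.0463).

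The window at 150001 to 160000 on chromosome V holds CEN5. Its 2 hr levels were 0.040, 0.0036, 0.081, 0.018, 0.048 and 0.015 and its 3 hr levels 0.090, 0.16, 0.12, 0.12, 0.15 and 0.089. Every 3 hr level lay above every 2 hr level, and the change was 0.086 ± 0.042 (SD, n = 6, adjusted p = 0.0463). Such separation was seen in 2 of the 10 named gains, 1 of the 10 named losses and 15 of all 1143 windows (1.31%). The named windows were chosen on this contrast, so nothing is read from that difference.

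The other named gains were of like size. The window at 260001 to 270000 on chromosome II rose by 0.10 ± 0.046 (SD, n = 6, adjusted p = 0.0328), with a change of 0.013 in wild-type ARS+ and 0.10 to 0.14 in the other cultures. Its levels differed widely between cultures, from -0.082 in wild-type ARS+ to 0.16 in DDK OP ars∆ at 2 hr. The remaining 6 were at 350001 to 360000 on chromosome XV (0.093), 500001 to 510000 on chromosome IV (0.092), 210001 to 220000 on chromosome XII (0.091), 430001 to 440000 on chromosome IV (0.091), 440001 to 450000 on chromosome X (0.086) and the CEN5 window already given. The farthest from a centromere was 64.1 kb away, and each rose in 5 or 6 of 6 cultures, with adjusted p-values from 0.046 to 0.0496. The single largest called change, 0.17 (adjusted p = 0.014) at 470001 to 480000 on chromosome X, rests on 1 listed position and was named after its value was seen.

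**Figure D2:**
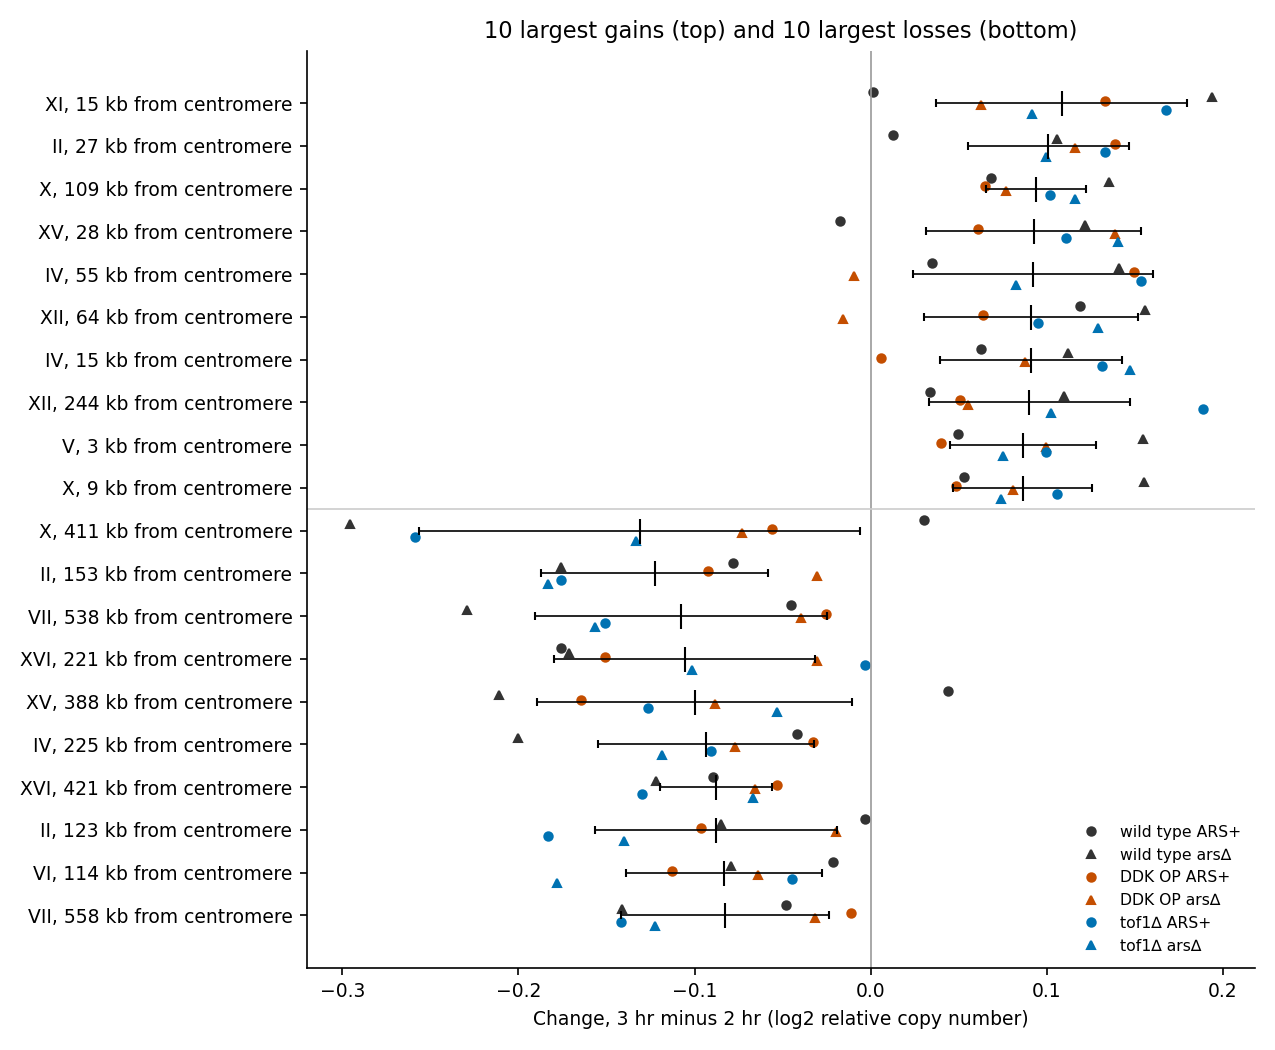
Change in log2 relative copy number, 3 hr minus 2 hr, in each of the 6 cultures (points) for the 10 named gains and 10 named losses, by chromosome and distance from the centromere. The bars give the mean and SD of 6 cultures, and wild-type ARS+ and DDK OP ars∆ are often nearest to 0.

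The longest run of losses covered 50001 to 90000 on chromosome II, in the outer part of the left arm. In its window of largest loss, 80001 to 90000, the 2 hr levels were 0.049, -0.018, 0.012, -0.058, 0.026 and -0.037 and the 3 hr levels -0.030, -0.19, -0.081, -0.089, -0.15 and -0.22. The window was near the median position at 2 hr and below it in 6 of 6 cultures at 3 hr, with overlap between wild-type ARS+ at 3 hr and 2 cultures at 2 hr. The change was -0.12 ± 0.064 (SD, n = 6, adjusted p = 0.0285), the lowest adjusted p among the losses.

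A single window near the left end of chromosome X, 20001 to 30000, had the largest mean loss among called windows. Its 2 hr levels were -0.060, 0.094, -0.083, -0.11, 0.043 and -0.12, and its 3 hr levels were -0.030, -0.20, -0.14, -0.18, -0.22 and -0.25. It fell in 5 of 6 cultures and went up by 0.030 in wild-type ARS+, and the times overlapped. The change was -0.13 ± 0.13 (SD, n = 6, adjusted p = 0.0496). On chromosome VII, near the right end, a run of 3 windows from 1010001 to 1040000 and a further window from 1050001 to 1060000 were called. The window at 1030001 to 1040000 fell by 0.11 ± 0.083 (SD, n = 6, adjusted p = 0.0463) and the one at 1050001 to 1060000 by 0.083 ± 0.059 (SD, n = 6, adjusted p = 0.0496), both in 6 of 6 cultures.

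Losses were also found in the middle of long arms. At 670001 to 680000 on chromosome IV, 225 kb from the centromere and 675 kb from the end, the 2 hr levels were -0.0041, 0.11, -0.019, -0.021, -0.026 and -0.015 and the 3 hr levels -0.046, -0.089, -0.052, -0.098, -0.12 and -0.13. All 3 hr levels lay below all 2 hr levels, and wild-type ars∆ stood highest at 2 hr. The change was -0.094 ± 0.061 (SD, n = 6, adjusted p = 0.0463).

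The other named losses were -0.11 at 330001 to 340000 on chromosome XVI, -0.10 at 710001 to 720000 on chromosome XV, -0.088 at 130001 to 140000 on chromosome XVI, -0.088 at 110001 to 120000 on chromosome II and -0.083 at 30001 to 40000 on chromosome VI. Their adjusted p-values lay between 0.045 and 0.0496. The loss on chromosome XVI at 130001 varied least between cultures among the named losses, from -0.13 to -0.053. The window on chromosome VI went from 0.059 ± 0.065 at 2 hr to -0.024 ± 0.046 at 3 hr (SD, n = 6), from above the genome's median to just below it. It was already at 0.095 at 1 hr. The whole of chromosome VI stood higher, at 0.11 at 2 hr and 0.13 at 3 hr in the mean.

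The median change of all windows fell with distance from the centromere. Of the 30 windows within 10 kb of a centromere, 5 gained (16.7%) and 0 lost, and 29 had a mean change above 0. Their median change was 0.062. Over all 1143 windows 2.45% gained, 2.01% lost and 50.5% had a mean change above 0, with a median of 0.00096. From 10 to 25 kb, 9 of 45 windows gained (20%) with a median of 0.056, and from 25 to 50 kb, 7 of 75 (9.33%) with a median of 0.048. From 50 to 100 kb, 2 of 141 gained (1.42%) with a median of 0.025. No window up to 100 kb was called lost. Beyond 100 kb, 5 of 852 gained (0.587%) and 23 lost (2.70%), with a median of -0.013. The 2.70% lost is near the 2.01% of all windows, most of which lie beyond 100 kb. Of the called gains, 14 of 28 thus lay within 25 kb of a centromere, a zone of 75 windows.

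The gradient differed in height between cultures. In the 30 windows within 10 kb, the median change was 0.019, 0.13, 0.016, 0.043, 0.096 and 0.075 in the order given above. It was above 0 in 6 of 6 cultures, high in wild-type ars∆ and both tof1∆ cultures and low in wild-type ARS+ and DDK OP ARS+. In DDK OP ARS+ the median was higher at 25 to 50 kb (0.047) than within 10 kb (0.016), whereas in wild-type ars∆ it fell from 0.13 to 0.10 over the same distance. As a mean of culture medians, the level of the 30 windows went from 0.037 ± 0.020 (SD, n = 6) at 2 hr to 0.10 ± 0.027 (SD, n = 6) at 3 hr.

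**Figure D3:**
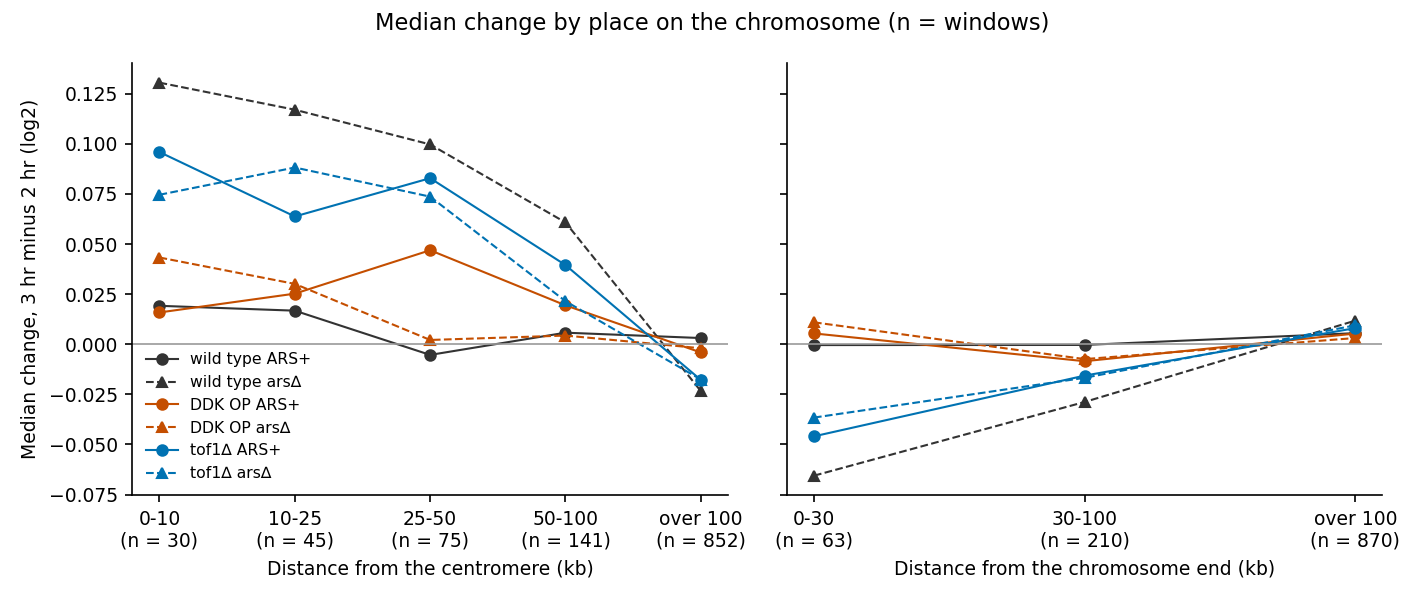
Median change, 3 hr minus 2 hr (log2), of windows by distance from the centromere (left) and from the chromosome end (right), 1 line per culture, with the number of windows under each bin. Within 25 kb of the centromere the medians are above 0 in 6 of 6 cultures, and beyond 100 kb they are below 0 in 5 of 6.

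Each centromere off chromosome III has its own window, and all 15 had a mean change above 0, beside 50.5% of all 1143 windows. Their changes ran from 0.034 at CEN8 to 0.086 at CEN5, with a median of 0.062. CEN5 and CEN15 were called, both at adjusted p = 0.046, and 11 of the 15 had an unadjusted p under 0.05, beside 30.3% of all windows. The CEN15 window, 320001 to 330000 on chromosome XV, went from -0.0048 ± 0.038 at 2 hr to 0.080 ± 0.047 at 3 hr (SD, n = 6). CEN2 (0.073, adjusted p = 0.068), CEN4 (0.070, adjusted p = 0.075) and CEN12 (0.064, adjusted p = 0.066) did not pass.

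The lowest changes belonged to CEN8, CEN1 (0.037, adjusted p = 0.35) and CEN9 (0.039, adjusted p = 0.24). CEN1 was already at 0.15 ± 0.11 (SD, n = 6) at 2 hr and CEN6 at 0.12 ± 0.064 (SD, n = 6), but the whole of chromosomes I and VI stood at 0.11 in the mean at that time. By culture, all 15 centromere windows were higher at 3 hr in wild-type ars∆ and in both tof1∆ cultures, 12 in DDK OP ars∆, and 9 in wild-type ARS+ and in DDK OP ARS+. Of all 1143 windows, 615, 579, 597, 590, 570 and 573 were higher at 3 hr, with the cultures in the order given above. In wild-type ARS+ and DDK OP ARS+, 9 of 15 was thus little above the share of all windows. The highest change in any culture was 0.18, at CEN2 in wild-type ars∆.

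**Figure D4:**
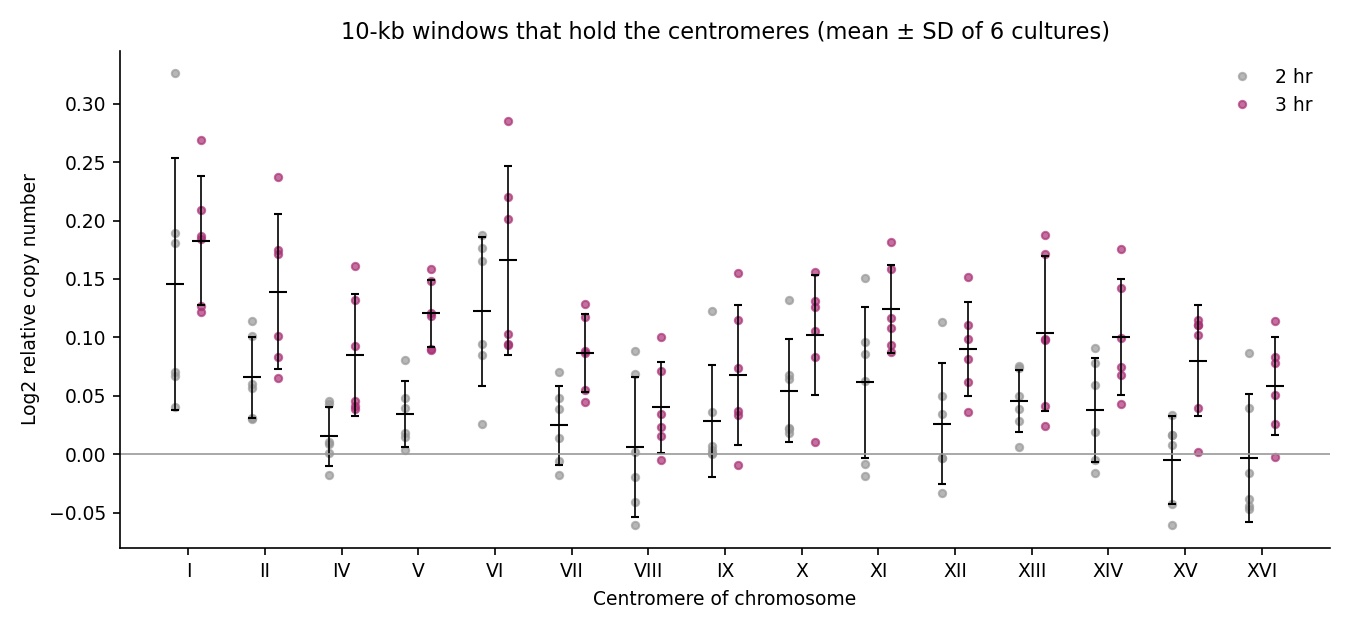
Log2 relative copy number at 2 hr and 3 hr in the 10-kb windows that hold the centromeres of the 15 chromosomes other than III. Points are the 6 cultures and bars their mean ± SD: the 3 hr mean is above the 2 hr mean in all 15, and the points separate fully at chromosome V alone.

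Near chromosome ends the median change was below 0, but not in every culture. In the 63 windows within 30 kb of an end, 0 gained and 2 lost (3.17%), beside 2.45% gained and 2.01% lost over all 1143 windows. So few calls say little about the ends. The median change of these 63 windows was -0.023, or -0.012 without wild-type ars∆. The medians were below 0 in wild-type ARS+ (-0.00042), wild-type ars∆ (-0.066), tof1∆ ARS+ (-0.046) and tof1∆ ars∆ (-0.037), and above 0 in both DDK OP cultures (0.0054 and 0.011). Further in, at 30 to 100 kb, 13 of 210 windows lost (6.19%) and 0 gained, and the median was -0.015 in all and below 0 in 6 of 6 cultures. Of the 23 losses, 15 lay within 100 kb of an end, a zone of 273 windows. Whether the DDK OP cultures differed at the ends was not tested.

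Of the windows that hold 7 known origins, none was called. Over all 1143 windows 2.45% gained and 2.01% lost, so 7 windows without a call say little about origins. ARS606, an early and efficient origin of chromosome VI, went from 0.18 ± 0.023 at 2 hr to 0.23 ± 0.042 at 3 hr (SD, n = 6), with 2 hr values (lowest, median, highest) of 0.16, 0.18 and 0.22 and 3 hr values of 0.17, 0.24 and 0.28. It was high at both times and higher at 3 hr in 6 of 6 cultures, with a change of 0.048 ± 0.047 (SD, n = 6, adjusted p = 0.126), and the levels overlapped. The ARS606 window was already at 0.12 at 1 hr, and ARS607 at 0.091. Chromosome VI as a whole stood at 0.11 at 2 hr and 0.13 at 3 hr in the mean. ARS607, the other early origin of that chromosome, went from 0.17 ± 0.054 at 2 hr to 0.18 ± 0.058 at 3 hr (SD, n = 6), a change of 0.012 ± 0.074 (SD, n = 6, adjusted p = 0.736) that was above 0 in 3 of 6 cultures. ARS416 (ARS1), on chromosome IV, had a change of 0.042 ± 0.092 (SD, n = 6, adjusted p = 0.299).

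ARS605 lies within MSH4 and is known to be silenced in meiosis when that gene is transcribed. Its change was 0.024 ± 0.059 (SD, n = 6, adjusted p = 0.458), with a level of 0.14 at 3 hr on a chromosome whose mean level was 0.13. The late origins of mitotic cells had changes of -0.016 ± 0.054 (SD, n = 6, adjusted p = 0.607) at ARS522 on chromosome V, -0.015 ± 0.035 (SD, n = 6, adjusted p = 0.578) at ARS603 and 0.0091 ± 0.025 (SD, n = 6, adjusted p = 0.736) at ARS609, both on chromosome VI. The flanks of the ribosomal DNA on chromosome XII, a repeat array with a fork barrier, were at -0.0012 ± 0.036 (SD, n = 6, adjusted p = 0.969) on the left, 430001 to 440000, and at 0.047 ± 0.036 (SD, n = 6, adjusted p = 0.119) on the right, 490001 to 500000.

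Over whole chromosomes the test could decide little, since 6 cultures cannot go below p = 0.031 in the exact sign-flip test and a single chromosome at that value does not pass after adjustment over 15. None passed, with a lowest adjusted p of 0.16. Chromosome X had the highest mean change, 0.018 ± 0.013 (SD over 6 cultures, n = 6, p = 0.031 by the exact sign-flip test and 0.16 after adjustment), up in 6 of 6 cultures and at the smallest p possible. Chromosome II had the lowest, -0.016 ± 0.020 (SD, n = 6, exact p = 0.13, adjusted p = 0.21), up in 2 of 6, and it held 7 of the 23 losses beside 4 gains. Chromosome V was up in 5 of 6 cultures, at 0.016 ± 0.013 (SD, n = 6), and chromosome VIII in 1 of 6, with -0.014 ± 0.012 (SD, n = 6). The small chromosomes I and VI had changes of 0.0067 ± 0.021 and 0.016 ± 0.020 (SD, n = 6). The 88 windows of I, VI and IX had a median of 0.012. They held 1 gain (1.14%) and 2 losses (2.27%), near the 2.45% and 2.01% of all windows.

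In the mean of the 6 cultures the changes were broader than the windows. Over windows, the mean change correlated at r = 0.78 with that 10 kb away, at 0.47 with that 50 kb away and at 0.25 with that 100 kb away. Around the 28 gained windows the mean change was 0.087 in the window itself, 0.053 and 0.061 in its neighbours, and still 0.043 and 0.028 at 60 kb to the left and right. Around the 23 lost windows it was -0.089, -0.065 and -0.055, and -0.045 and -0.019 at 60 kb. The central windows were chosen for their change in these 6 cultures, so in each culture the fall to the neighbours is partly fixed by the choice. Whether the breadth differed between cultures was not tested. In wild-type ARS+ the mean was 0.046 in the gained windows but 0.00077 and 0.012 beside them, and -0.041 in the lost windows but 0.0020 and -0.00061 beside them. DDK OP ars∆ had -0.042 in the lost windows and 0.0035 and -0.013 beside them.

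At the 2.5-kb spacing, the mean change smoothed over 5 positions had 149 peaks and 149 valleys, each the highest or lowest point within 20 kb. The median spacing was 52.5 kb between peaks and 57.5 kb between valleys, and the median heights were 0.033 and -0.028. The numbers follow the bound, with 266 peaks and 279 valleys at 10 kb and 91 and 93 at 30 kb. The tallest peaks, at position 425000 of chromosome XI (0.10), 357500 of XV (0.097) and 547500 of X (0.094), fell within the regions of named gains, and the valleys at 82500 of II (-0.12) and 1030000 of VII (-0.11) within those of named losses. The deepest valley, -0.13 at 942500 of chromosome XII, was up in 2 of 6 cultures and in no called window. In all, 37 peaks were up and 28 valleys down in 6 of 6 cultures. Over all 10-kb windows, 8.31% were up and 5.95% down in 6 of 6. The peaks and valleys were picked on the mean of these same cultures, so agreement in sign and the overlap with named regions are favoured by the choice.

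**Figure D5:**
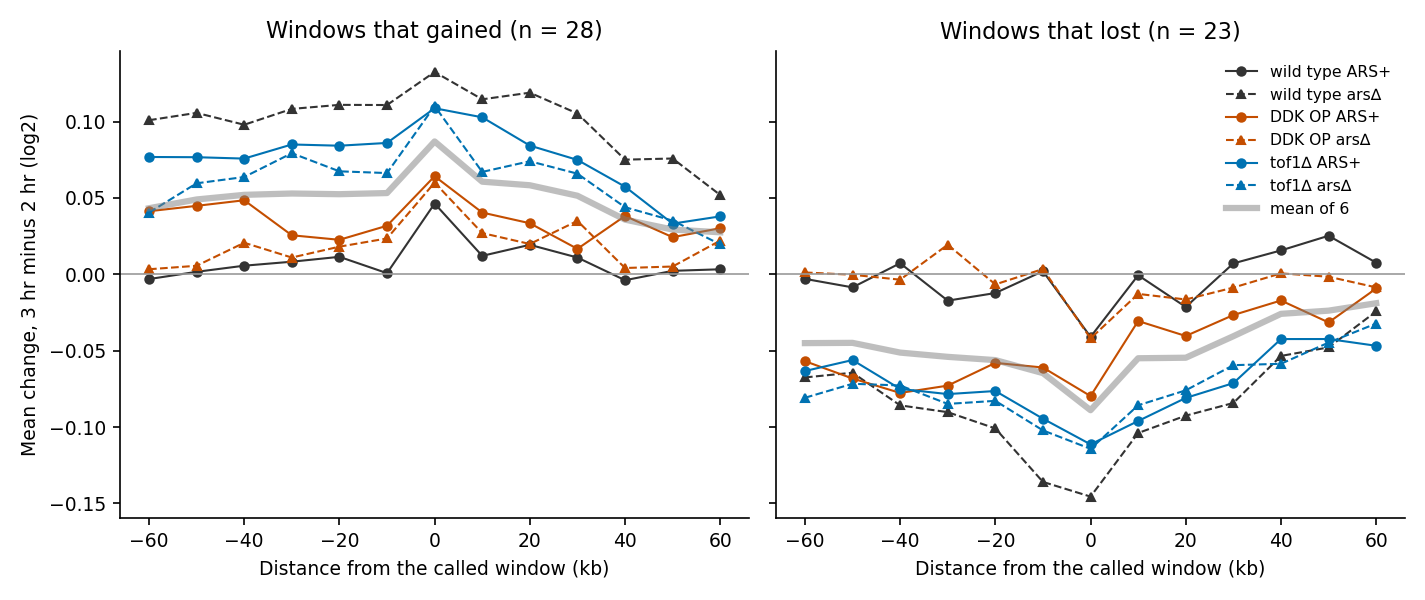
Mean change, 3 hr minus 2 hr (log2), against distance (kb) from the 28 windows called gained (left) and the 23 called lost (right), 1 line per culture and a grey line for the mean of 6. The mean is 0.087 in the gained windows and 0.028 at 60 kb to their right, and -0.089 and -0.019 for the lost windows.

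The called windows were also followed through the other times. They were chosen on their 2 and 3 hr values, so the distance of these levels from those at other times is partly fixed by the choice. The median level of the 28 gains was -0.0032 at 1 hr, 0.019 at 2 hr, 0.073 at 2.5 hr, 0.098 at 3 hr, 0.079 at 3.5 hr and 0.055 at 4 hr. That of the 23 losses was -0.0042, -0.0071, -0.055, -0.093, -0.083 and -0.062. Both groups were thus near the median position at 1 hr, and at 4 hr they had moved back towards it from their 3 hr levels.

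From 2.5 to 3.5 hr, an interval that shares no sample with the contrast, 22 of the 23 losses went down (median -0.031) and 20 of the 28 gains went up (median 0.012), beside a median of -0.0012 over all windows. Over those gains the median of the 2.5 to 3.5 hr change was 0.075 in wild-type ARS+, 0.066 in DDK OP ars∆ and 0.017 in wild-type ars∆, but -0.037 in DDK OP ARS+, -0.033 in tof1∆ ARS+ and -0.019 in tof1∆ ars∆. Over the losses it was above 0 in DDK OP ARS+ (0.012) and between -0.055 and -0.021 in the other cultures. In wild-type ARS+ the change from 2.5 to 3.5 hr correlated over windows at 0.63 with the 3 minus 2 hr change of the other cultures, and in DDK OP ars∆ at 0.53. In wild-type ars∆ it was 0.30, in DDK OP ARS+ -0.24, in tof1∆ ARS+ -0.063 and in tof1∆ ars∆ 0.13.

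The change was also compared between backgrounds and ars states, with limma terms over the 6 differences. No window differed in its change with DDK OP (0%, lowest adjusted p = 0.13) or with the ars deletion (0%, lowest adjusted p = 0.47), with 31 and 32 windows at an unadjusted p under 0.05. With tof1∆, 1 window differed (0.0875%), at 480001 to 490000 on chromosome XII, where the change exceeded that of wild type by 0.30 ± 0.058 (SE, adjusted p = 0.048). That window has 1 listed position, and none differed with tof1∆ when the 1069 windows with all 4 positions were tested alone. With 1 culture left out, 2 to 3 windows differed with DDK OP, 1 to 3 with tof1∆ and 0 to 5 with the ars deletion, in fits where a background left with 1 culture is assumed to vary like the others. Each background rests on 2 cultures.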

How the data were processed

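Total DNA was sequenced from 48 samples of 6 yeast cultures at 8 times, per the labels' protocols, and the 12 samples at 2 and 3 hr carry the comparison. Reads were aligned with BWA (version not given in the sources used here) to sacCer2, per the submitters' processing notes. The authors deposited 1 table of ratios per strain, at 4568 positions 2.5 kb apart and 7 times. The divisor of the ratios is not stated, and a denominator shared by a culture cancels in the change. The tables hold no counts, so the depth behind a ratio cannot be given.

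Each ratio was divided by its sample's median, log2 was taken, and positions were averaged over 10-kb windows. The 3 minus 2 hr differences of the 6 cultures were tested against 0 with limma 3.58.1 (R 4.3.3; lmFit, eBayes; 5 residual and 9.76 prior degrees of freedom), with Benjamini-Hochberg adjustment over all 1174 windows, chromosome III included, and a threshold of 0.05. Of the windows on III, 1 was called. Single values per sample were tested over cultures by exact two-sided permutation of signs. The pairing comes from the strain labels: deviations from the time's mean correlated at 0.31 to 0.49 between the 2 and 3 hr samples of a culture and at -0.25 to 0.14 between cultures. The fit was also run on simulated differences, drawn independently for each window and culture, with any added change the same in all cultures. In the data the mean change correlated at r = 0.78 between windows 10 kb apart, so that run does not test the calls made here.

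Regions are runs of adjacent called windows. The text names the 10 largest gains and 10 largest losses by their top window with 3 or more listed positions, and the windows of centromeres, 7 origins and 2 ribosomal DNA flanks, placed by rounded position. Members and lists were chosen with earlier results of these data known. Alternatives were other windows, centrings, filters, eBayes settings, times, subsets of cultures, no pairing and each culture left out. No genome or annotation of sacCer2 was used, so genes are not assigned, no sequence is shown, and neither the DDK or TOF1 alterations nor the removed origins were looked at in the data.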

Additional observations from a re-analysis of the deposited data

Results flagged for a closer look

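The change at 260001 to 270000 on chromosome II was 0.013 in wild-type ARS+, apart from the other 5 cultures, whose changes were 0.10 to 0.14. The gap was 0.69 of the whole range. It was the 1 sample set apart among 66 groups of 6 examined, and chance sets about 1 group in 20 apart.

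The change at 480001 to 490000 on chromosome XII differed between tof1∆ and wild type by 0.30 (limma, adjusted p = 0.048), with 2 cultures of each. It was 0.17 and 0.19 in the tof1∆ cultures, -0.091 and -0.15 in the wild-type cultures, and 0.099 and -0.11 in the DDK OP cultures, ARS+ first. At 2 hr the tof1∆ cultures stood at -0.18 and -0.34 and the wild-type cultures at 0.17 and 0.16, and at 3 hr they stood at -0.013 and -0.15 against 0.083 and 0.018. The window lies between the ribosomal DNA and its right flank, and rests on 1 listed position.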

How the results depend on the processing

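The main limits are that each strain is 1 culture, that most calls lie just under the threshold, and that depth is unknown. Called gains and losses numbered 28 and 23, and 6 and 5 in 5-kb windows, 13 and 11 for single positions, 16 and 9 with the median taken off chromosome III, 69 and 45 for windows with all 4 positions, 14 and 9 with a trend, and 54 and 32 with robust eBayes. Without pairing by culture (no replicate block), in ARS+ or ars∆ cultures alone, and for 3.5 minus 2.5, 2.5 minus 2 and 3 minus 2.5 hr, limma called 0 in both directions, with 206, 86, 234, 214, 190 and 140 windows at an unadjusted p under 0.05. With each culture left out they ranged from 0 to 93 and from 0 to 70. The rise in spread was 0.034 as an interquartile range (exact p = 0.0625) and 0.015 to 0.022 with a culture left out. It kept its call without pairing. Windows that differed with DDK OP numbered 3 in 5-kb windows and 1 in full windows, and with a culture left out 2 to 3 for DDK OP, 1 to 3 for tof1∆ and 0 to 5 for the ars deletion. In full windows there were 0 for tof1∆ and 1 for the ars deletion. Peaks and valleys numbered 266 and 279 within 10 kb and 91 and 93 within 30 kb.

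Of the 20 named gains and losses, 20 kept their direction in each alternative that gives all of them a value, except 3.5 minus 2.5 hr, where 17 did. All alternatives but that one share samples with the contrast that chose these windows, so little is read from a kept direction. In windows with all 4 positions 18 have a value, and 18 kept their direction and their call. In other settings 19 stayed called with mean centring and robust eBayes, 18 on the linear scale, 15 with a trend and 14 with the median off III. The 2 smaller window sizes give no value for them. From 2.5 to 3.5 hr these turned: 500001 (-0.011) and 430001 (-0.014) on IV, 130001 on XVI (0.015), CEN1 (-0.024), CEN6 (-0.015), CEN8 (-0.0075), CEN9 (-0.00070), CEN11 (-0.0060), ARS606 (-0.035), ARS607 (-0.027), ARS609 (-0.039) and the left ribosomal flank (0.048). From 2.5 to 3 hr CEN1 (-0.0058), CEN4 (-0.013), ARS607 (-0.0031) and the left flank (0.024) turned, and from 2 to 2.5 hr CEN8 (-0.0011), ARS605 (-0.0093) and ARS603 (0.011). ARS+ cultures alone turned CEN1 (-0.013), ARS607 (-0.016), ARS522 (0.0083) and the left flank (0.011), and ars∆ cultures alone ARS605 (-0.022), ARS603 (0.0096) and ARS609 (-0.0076). With a culture left out, ARS607 ranged from -0.0053 to 0.037 and the left flank from -0.010 to 0.0084. The causes were not tested.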

Other observations

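Levels after 3 hr are given for 3 groups of windows. In the 63 windows within 30 kb of an end, the mean of the culture medians was 0.00025 ± 0.024 (SD, n = 6) at 2 hr, -0.020 ± 0.029 at 3 hr, -0.029 ± 0.019 at 3.5 hr and -0.044 ± 0.037 at 4 hr. The called losses, chosen for low 3 hr against 2 hr values and so liable to move back, had a median change of 0.031 from 3 to 4 hr, and 2 of the 23 windows went further down. The 30 windows within 10 kb of a centromere went from 0.10 ± 0.027 (SD, n = 6) at 3 hr to 0.089 ± 0.022 at 3.5 hr and 0.059 ± 0.0096 at 4 hr. These differences after 3 hr were not tested.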
